A study of Homo sapiens with 4 samples.

Results

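The 10 keratin genes described here were KRT4, KRT6A, KRT7, KRT8 and KRT80, which encode type II keratins, and KRT13, KRT15, KRT17, KRT18 and KRT19, which encode type I keratins. They were taken by symbol from the 18134 genes of the deposited expression table, in which 41 keratin genes were listed. KRT4 had been selected on its shTPX2 and shNC values in the same 4 libraries as one of the clearer increases, and the other members were grouped around it. The levels of the 10 genes in the 2 groups are therefore a description, and no p-value is given for any of them.

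RNA sequencing was performed on PC9 cells, an established human lung adenocarcinoma line grown in DMEM with fetal bovine serum, which had been infected with a pLKO.1 lentivirus and selected with an antibiotic to give stable lines. The shTPX2 group (2 libraries) carried a short hairpin RNA against TPX2, a spindle assembly factor, and the shNC group (2 libraries) carried a negative control hairpin in the same kind of vector, so that both groups had been infected and selected. The comparison asked how depletion of TPX2 altered the transcriptome. All 4 libraries were poly(A)-selected and labelled as the same batch, and nothing in the labels said that the 2 libraries of a group came from separate cultures, so any p-value below measures only the spread between these libraries, which may be technical.

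Keratins are the intermediate filament proteins of epithelial cells, and each filament is built from heterodimers of a type I and a type II chain. KRT8 and KRT18 form the filaments of simple epithelia and are joined by KRT7 and KRT19 in ducts and airways, whereas KRT4 and KRT13 pair in the suprabasal layers of non-keratinized stratified epithelia such as the oesophagus. KRT6A and KRT17 are induced in activated or wounded keratinocytes, and KRT15 is a keratin of basal cells.

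The targeted gene was examined first. TPX2 stood at 55.0 and 111.9 TPM (a transcript level corrected for length and scaled to the same total in each library) in shNC 1 and shNC 2 and at 43.4 and 43.8 TPM in the shTPX2 libraries. Both shTPX2 libraries were lower than both shNC libraries, but the shNC libraries lay farther apart than shNC 1 lay from the shTPX2 libraries. The log2 fold change was -0.81 (SE 0.32, adjusted p = 0.618 in the quasi-likelihood test of edgeR, adjusted by Benjamini-Hochberg over all genes), and it was -0.24 without shNC 2 and -1.21 without shNC 1. Expected counts summed to 20906441 to 21972583 per library. Across the tested genes, log2 counts scaled to library size correlated at 0.983 between shNC 1 and shTPX2 1. The 2 shNC libraries correlated at 0.972, the 2 shTPX2 libraries at 0.979, and the other pairs across the groups at 0.966 to 0.971. The libraries thus did not group by hairpin. No gene of the 14048 tested reached an adjusted p below 0.05 in edgeR (0%), 1128 reached an unadjusted p below 0.05 (8.03%), and DESeq2 called 111 (0.79%). Under the study's own thresholds for differentially expressed genes, which take an unadjusted p up to 0.1 and ask for a log2 difference of 0.3 or more either way, limma called 876 genes higher (6.24%) and 1122 lower (7.99%) in shTPX2 cells. In bulk RNA, fewer cells of a type and less RNA per cell cannot be told apart.

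The epithelial identity of the cells was checked against marker genes. EPCAM ranged from 201 to 293 TPM, CDH1 from 141 to 180 TPM and MUC1 from 285 to 441 TPM, and of 11 tested markers of lung and epithelial lineage 0 passed the study's thresholds. The lung-defining markers were near 0, with NKX2-1 at 0.22, 1.55, 0.04 and 0.17 TPM (in the order shNC 1, shNC 2, shTPX2 1, shTPX2 2, used throughout) and SFTPC at 0.13 TPM at most. The stratified basal keratins KRT5 and KRT14 reached 0.27 and 0.20 TPM. Of 7 fibroblast markers, LUM was at 0 in the 4 libraries and COL1A2, COL3A1, DCN and THY1 reached 0.09 TPM at most. The 2 that were tested were COL1A1, at 8.64, 11.99, 5.72 and 8.04 TPM, and PDGFRB, at 0.40, 0.34, 0.13 and 0.13 TPM. PDGFRB was lower by the study's thresholds (log2 fold change -1.37, SE 0.48, edgeR adjusted p = 0.594). Of 6 leukocyte markers, CD68, which is also made outside leukocytes, was at 125.6, 220.4, 191 and 168 TPM. LYZ reached 2.64 TPM and PTPRC 0.69 TPM, and 0 of the 4 leukocyte markers tested passed the study's thresholds. Of 5 endothelial markers, KDR and TEK reached 0.02 TPM and VWF 0.17 TPM, PECAM1 was at 5.38, 14.4, 4.2 and 5.92 TPM, and CDH5 was at 14.4, 18.1, 26.7 and 30.5 TPM (log2 fold change 0.94, SE 0.18, edgeR adjusted p = 0.439). Of the 3 endothelial markers tested, CDH5 was higher by the study's thresholds, and 1 passed an adjusted p below 0.05 in DESeq2. Over all tested genes, 6.24% were higher and 7.99% lower by the study's thresholds, and DESeq2 called 0.79%. The part of these markers in the keratin values was not tested.

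Among the 10 keratins, KRT4 was higher in both shTPX2 libraries, KRT17 was lower in both, and the ranges of the other 8 overlapped between the groups. Mean KRT4 expression was 6.42 ± 1.92 TPM in shNC cells and 36.1 ± 14.2 TPM in shTPX2 cells (SD, n = 2), a ratio of 5.62, and mean KRT17 expression was 6.70 ± 0.262 and 1.50 ± 0.134 TPM, a ratio of 0.225. The abundant simple-epithelial keratins KRT7, KRT8, KRT18 and KRT19 had ratios between 0.987 and 1.19. Of all tested genes, 10.7% had groups that did not overlap with shTPX2 higher and 30.3% with shTPX2 lower.

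KRT4 (ENSG00000170477.12) encodes the type II keratin of the KRT4/KRT13 pair. It lies on the minus strand of chromosome 12, within the type II keratin cluster, at chr12:52806549-52814551 of GRCh38, with 9 exons. Its promoter is shown because KRT4 had the largest fold change among the 10 genes. The window runs from 250 bases before to 50 bases after the RefSeq start (GRCh38.p14, chr12:52814067-52814366, minus strand, read 5′ to 3′), and capitals mark the letters TATAA.
KRT4 promoter: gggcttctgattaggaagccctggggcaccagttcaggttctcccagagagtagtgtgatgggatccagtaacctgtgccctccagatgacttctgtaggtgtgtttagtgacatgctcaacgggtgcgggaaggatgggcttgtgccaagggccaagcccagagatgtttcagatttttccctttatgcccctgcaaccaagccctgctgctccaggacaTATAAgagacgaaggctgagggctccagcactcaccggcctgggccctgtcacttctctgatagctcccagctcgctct
The TATAA begins 29 bases before the start, and 20.4% of the 35116 RefSeq promoters of the same length hold these letters on either strand. This short motif was added after the window had been seen. The longer TATAAA (in 11.5% of promoters), the AP-1 letters TGANTCA (7.71%), the GC box GGGCGG (45.0%) and the CACCC box CCACCC (34.3%) were searched on both strands and are not in the window. These matches describe letters, and no binding was measured.

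The KRT4 level was 7.78 TPM in shNC 1 and 5.06 TPM in shNC 2, and it was 25.99 TPM in shTPX2 1 and reached 46.1 TPM in shTPX2 2. The expected counts behind these values were 174, 112, 612 and 1041. The lower shTPX2 library was 3.34 times the higher shNC library, so the groups did not overlap. The log2 fold change was 2.60 (SE 0.36) and ranged from 2.16 without shTPX2 2 to 2.98 without shNC 1. The 2 libraries of a group differed by 0.65 (shNC) and 0.78 (shTPX2) on the log2 CPM scale (counts scaled to library size), against medians over all tested genes of 0.28 and 0.23. KRT4 thus varied between replicates more than most genes did, at the 81.5th and 91.1st percentile. As a share of the summed TPM of type II keratins, KRT4 was 0.0510%, 0.0469%, 0.197% and 0.317%, so it was a minor type II keratin in every library.

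KRT13 encodes the type I partner of KRT4 in stratified epithelium and lies in the type I cluster at chr17:41500981-41505705 (minus strand, 8 exons). It was at 1.55, 1.20, 3.17 and 0.40 TPM, from expected counts of 28, 21, 59 and 7. The highest and the lowest of these values were the 2 shTPX2 libraries, which differed 7.92-fold, so the shNC values lay between them. The log2 fold change was 0.49 (SE 0.87) and was -1.70 without shTPX2 1 and 1.33 without shTPX2 2, and no direction can be given for KRT13. KRT4 exceeded KRT13 by 5.02 and 4.22 times in shNC 1 and shNC 2, and by 8.20 and 115 times in shTPX2 1 and shTPX2 2. The last ratio rests on the 7 counts of KRT13 in shTPX2 2, where KRT4 was also at its highest.

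KRT17 (chr17:41619441-41624842, minus strand, 8 exons) encodes a type I keratin of basal and appendage epithelium that pairs with KRT6 chains. It was at 6.88 and 6.51 TPM in shNC 1 and shNC 2 and at 1.41 and 1.60 TPM in shTPX2 1 and shTPX2 2, from counts of 112, 105, 24 and 26. The lower shNC library was 4.07 times the higher shTPX2 library. The libraries of each group lay close together, 0.12 and 0.13 apart on the log2 CPM scale, and the log2 fold change of -2.04 (SE 0.37) moved only between -2.10 and -1.97 when any 1 library was left out. A pseudogene, KRT17P3, shares 0.322% of the 100-base stretches of the transcript. Summed over 6 basal and squamous marker genes the level was 3.07, 6.54, 1.84 and 2.45 TPM, and was also lower in both shTPX2 libraries. Most of this sum was TP63, at 2.17, 5.04, 1.08 and 1.45 TPM. DSG3, the other marker that was tested, was at 0.62, 0.96, 0.52 and 0.72 TPM, and its groups overlapped. KRT5, KRT14, DSC3 and PKP1 were at 0.27 TPM or less. The part of these markers in the KRT17 values was not tested.

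KRT6A (chr12:52487174-52493257, minus strand, 9 exons) encodes a type II keratin of activated keratinocytes and a partner of KRT17. It was at 0.72, 5.48, 1.84 and 0.42 TPM, from counts of 18, 139, 50 and 11. A single library, shNC 2, stood above the others, and the 2 shNC libraries differed 7.61-fold while the shTPX2 libraries differed 4.38-fold. The log2 fold change was -1.28 (SE 1.02), and it was 0.80 without shNC 2 and -2.72 without shTPX2 1, so its direction depended on 1 library. KRT6A shares 18.2% of its 100-base stretches with other genes, 17.6% with KRT6C, and its reads may have been divided among these copies. Unlike KRT17, KRT6A had groups that overlapped.

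KRT15 (chr17:41513743-41522529, minus strand, 8 exons) encodes a type I keratin of basal cells of stratified and airway epithelium. It was at 25.95, 20.5, 23.6 and 58.1 TPM, from counts of 515, 402, 487 and 1138. Only shTPX2 2 stood apart, and shTPX2 1 lay between the 2 shNC libraries. The log2 fold change was 0.90 (SE 0.40), 0.15 without shTPX2 2 and 1.40 without shTPX2 1. The same library, shTPX2 2, held the highest KRT4 and KRT15 values and the lowest KRT6A and KRT13 values.

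KRT8 and KRT18 encode the type II and type I chains of simple epithelia and were the most abundant keratins. They are neighbours at chr12:52897187-52949954 (KRT8, minus strand, 9 exons) and chr12:52948871-52952901 (KRT18, plus strand, 7 exons), and KRT18 is the only type I gene among the members that lies in the type II cluster. KRT8 was at 11388, 8228, 8920 and 11206 TPM and ranked 4, 5, 5 and 4 among all listed genes. KRT18 was at 9007, 7136, 7969 and 7962 TPM and ranked 6, 7, 7 and 5. In both genes shNC 1 was the highest and shNC 2 the lowest library, with the shTPX2 libraries between them. The log2 fold changes were 0.16 (SE 0.27) for KRT8 and 0.10 (SE 0.23) for KRT18, and each ranged from below 0 to above 0 when libraries were left out, from -0.08 to 0.44 and from -0.08 to 0.31. The KRT8 to KRT18 ratio was 1.26 and 1.15 in shNC and 1.12 and 1.41 in shTPX2 cells. The annotated ends of the 2 genes overlap on opposite strands, and KRT8 shares 7.56% of its 100-base stretches with pseudogenes, so a part of their reads may have been assigned to either or lost to the copies.

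KRT7 and KRT19 encode the type II and type I keratins of ductal and glandular epithelia. KRT7 (chr12:52232520-52252186, plus strand, 9 exons) was at 3719, 2392, 4115 and 3183 TPM. KRT19 (chr17:41523617-41528308, minus strand, 6 exons), the shortest keratin and one without a tail domain, was at 3046, 1792, 2602 and 3052 TPM. In both genes shNC 2 was the lowest library, and the groups overlapped. The log2 fold changes were 0.38 (SE 0.29) and 0.34 (SE 0.30), and without shNC 2 they were the smallest, at 0.07 and -0.01. KRT80 (chr12:52168996-52192000, minus strand, 9 exons), a type II keratin found in many epithelia, was at 127.5, 119.2, 137.0 and 105.3 TPM. Its highest and lowest values were both shTPX2 libraries, and its log2 fold change was 0.10 (SE 0.20), with a range of -0.12 to 0.30.

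**Figure D1:**
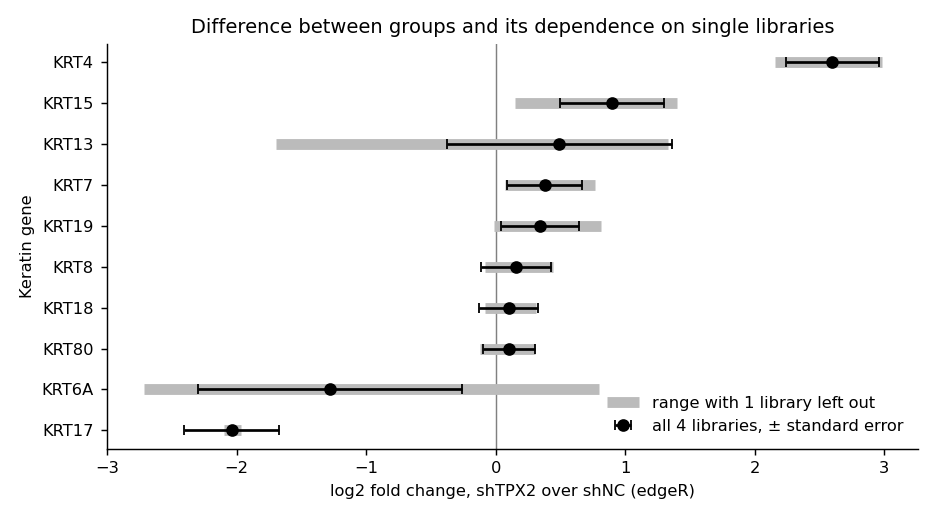
The log2 fold change of each keratin, shTPX2 minus shNC, from the edgeR fit, with black bars of 1 standard error and a grey band for the range with 1 library left out. The values of KRT4 stay between 2.16 and 2.98 and those of KRT17 between -2.10 and -1.97, whereas the values of KRT6A and KRT13 lie on both sides of 0.

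In order of level, KRT8 and KRT18 came first and overlapped each other, KRT7 and KRT19 followed and also overlapped, and KRT80 came next without overlap with its neighbours. Below it, the order of the less abundant keratins differed between the groups. In shNC cells KRT15 (20.5 and 25.95 TPM) stood above KRT4 and KRT17, which overlapped at 5.06 to 7.78 and 6.51 to 6.88 TPM. In shTPX2 cells KRT4 (25.99 and 46.1 TPM) fell within the range of KRT15 (23.6 and 58.1 TPM), and KRT17 (1.41 and 1.60 TPM) fell within that of KRT6A (0.42 and 1.84 TPM) and KRT13 (0.40 and 3.17 TPM).

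The total keratin level was set by the abundant members. All listed keratins together made up 2.74%, 1.98%, 2.38% and 2.57% of TPM, and KRT7, KRT8, KRT18 and KRT19 made up 98.9% to 99.2% of that. The total was highest and lowest in the 2 shNC libraries, with both shTPX2 libraries between them. The ratio of type II to type I keratin TPM was 1.26 and 1.20 in shNC and 1.24 and 1.31 in shTPX2 cells. KRT4 was a small share of the summed keratin mRNA in both groups, and keratin protein was not measured here.

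By the study's thresholds, 1 of the 10 members was higher (KRT4, 10.0%) and 1 lower (KRT17, 10.0%), beside 6.24% and 7.99% of all tested genes, while at an adjusted p below 0.05 edgeR called 0 members (0% of all tested genes) and DESeq2 called 2 (0.79% of all tested genes). The median log2 fold change of the members was 0.25, against -0.01 over all tested genes, and 8 of the 10 were above 0, of which KRT18 and KRT80 had TPM ratios below 1. Since the same contrast was used to choose the members, nothing is read from these counts. Without shNC 1 the median was 0.59. How many members were called changed when 1 library was left out, and so did the number over all tested genes.

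Of the 31 other keratins listed, 8 passed the filter on low counts. By the study's thresholds 0 of these were called higher and 1 lower (12.5%), beside 6.24% and 7.99% of all tested genes. Their median log2 difference was -0.24. The lower gene was KRT81, a type II hair keratin, at 1.42, 1.67, 0.72 and 0.40 TPM (log2 fold change -1.33, SE 0.50, edgeR adjusted p = 0.606). Its log2 fold change was -0.95 without shTPX2 2, and it was not called by DESeq2. With 8 counts in shTPX2 2, it was not tested where at least 10 counts were required in every library. KRT16, a type I partner of KRT6A in activated keratinocytes, was at 15.2, 13.5, 10.1 and 11.3 TPM (log2 fold change -0.30, SE 0.24, edgeR adjusted p = 0.788). In KRT81 and KRT16, as in KRT17, the groups did not overlap and shTPX2 was lower, as in 30.3% of all tested genes, and neither difference passed the adjusted threshold. KRT6B, a close relative of KRT6A, was at 7.96, 22.7, 13.9 and 7.98 TPM (log2 fold change -0.34, SE 0.51, edgeR adjusted p = 0.891), and shNC 2 again stood above the rest. KRT10, a type I keratin of suprabasal epidermis, was at 20.5, 16.8, 20.4 and 18.4 TPM (log2 fold change 0.18, SE 0.22, edgeR adjusted p = 0.865). KRT3, KRT23, KRT78 and KRT86 lay between 0.66 and 4.52 TPM, overlapped between the groups and had log2 fold changes from -0.43 to 0.68.

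Keratin filaments are fixed to desmosomes and hemidesmosomes, and the genes of these anchors were examined next. Of 22 tested anchor genes, 0 were higher and 3 were lower by the study's thresholds (13.6%), beside 6.24% and 7.99% of all tested genes. The median log2 fold change was 0.05. The 3 genes encode large linkers, and in each shTPX2 was lower without overlap of the groups, as in 30.3% of all tested genes. DSP, desmoplakin, which ties keratin to the desmosomal plaque, was at 60.7, 57.1, 39.7 and 42.1 TPM (log2 fold change -0.42, SE 0.17, edgeR adjusted p = 0.621). EPPK1, epiplakin, was at 28.2, 25.4, 20.1 and 17.02 TPM (log2 fold change -0.40, SE 0.18, edgeR adjusted p = 0.653), and MACF1, a linker of actin and microtubules, at 22.6, 23.3, 15.5 and 16.9 TPM (log2 fold change -0.38, SE 0.16, edgeR adjusted p = 0.635). All 3 were lower in both shTPX2 libraries. Calls of anchor genes changed in number when 1 library was left out, as did calls over all tested genes.

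Genes of squamous differentiation and the cornified envelope, which serve stratified epithelia, differed in both directions. Of 32 tested, 5 were higher (15.6%) and 4 lower (12.5%), beside 6.24% and 7.99% of all tested genes. The median log2 fold change was -0.16, and 7 of the 32 had an unadjusted edgeR p below 0.05, beside 8.03% of all tested genes. Among the other keratins and in the other lists of keratin-related genes, 1 to 7 genes did. SPRR3, a small proline-rich envelope protein of oesophageal epithelium, was at 0.98, 1.43, 3.11 and 5.28 TPM (log2 fold change 1.93, SE 0.51, edgeR adjusted p = 0.579). CALML5, a calmodulin-like protein of keratinocytes, was at 12.5, 8.74, 15.8 and 28.5 TPM and CSTB, the protease inhibitor cystatin B, at 830, 951, 1138 and 1296 TPM. Against these, KLK5 and KLK7, the kallikrein proteases of epithelial shedding, stood at 731, 851, 484 and 367 TPM and at 26.7, 48.2, 12.8 and 17.4 TPM (log2 fold changes -0.77, SE 0.22, and -1.18, SE 0.31, both with an edgeR adjusted p of 0.579). Without shNC 2 the log2 fold change of KLK7 was -0.72, and that of CALML5, 1.18 with all libraries, was 0.72 without shTPX2 2. Each of these genes had groups that did not overlap, as in 10.7% (shTPX2 higher) and 30.3% (shTPX2 lower) of all tested genes. The values of this list thus did not share the direction of KRT4. The number of genes of the list that were called depended on single libraries, as did the number over all tested genes.

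Transcription factors that act on epithelial and squamous keratin genes were also divided. Of 44 tested, 5 were higher and 5 lower (11.4% each), beside 6.24% and 7.99% of all tested genes. The log2 fold changes of the 44 had a median of 0.00. FOSL1, an AP-1 subunit, was at 35.6, 24.5, 65.8 and 42.7 TPM (log2 fold change 0.99, SE 0.30) and KLF4, a factor of differentiating epithelium, at 19.3, 16.8, 31.8 and 22.0 TPM (log2 fold change 0.70, SE 0.24), with edgeR adjusted p of 0.579 and 0.587. TP63, the master factor of basal squamous cells, was at 2.17, 5.04, 1.08 and 1.45 TPM (log2 fold change -1.39, SE 0.44, edgeR adjusted p = 0.579). Leaving out 1 library gave -0.75 (without shNC 2) to -1.82 (without shNC 1) for TP63, 0.62 (without shTPX2 1) to 1.34 (without shNC 1) for FOSL1 and 0.39 (without shTPX2 1) to 0.97 (without shTPX2 2) for KLF4. FOSB and RXRA were also higher, and FOSL2 and NOTCH2 lower, in both shTPX2 libraries. How many factors were called depended on single libraries, as it did over all tested genes.

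Of 11 tested intermediate filament genes of other classes, 2 were higher (18.2%) and 1 lower (9.09%), beside 6.24% and 7.99% of all tested genes. Their median was 0.22 on the log2 scale. The higher genes were SYNM, synemin, at 2.12, 1.43, 2.39 and 2.68 TPM, and LMNB2, a nuclear lamin, at 58.3, 77.9, 85.6 and 76.8 TPM, whose groups overlapped. IFFO1, a nuclear filament protein, was at 2.90, 2.61, 1.20 and 0.76 TPM (log2 fold change -1.36, SE 0.44, edgeR adjusted p = 0.579). Higher and lower calls in this list changed in number when 1 library was left out, as did those over all tested genes. Of 27 tested genes for keratin turnover, phosphorylation and chaperoning, 3 were higher (11.1%) and 0 lower, with a median of 0.10. They were HSPA8, a chaperone at 850, 899, 1236 and 1163 TPM (log2 fold change 0.59, SE 0.18, edgeR adjusted p = 0.579), AKT1, a kinase, and HSPB1, a small heat shock protein that binds intermediate filaments, at 2851, 2728, 3159 and 3837 TPM (log2 fold change 0.45, SE 0.20, edgeR adjusted p = 0.646). In these 5 lists and among the other keratins, 0 genes reached an adjusted p below 0.05 in edgeR or in DESeq2.

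**Figure D2:**
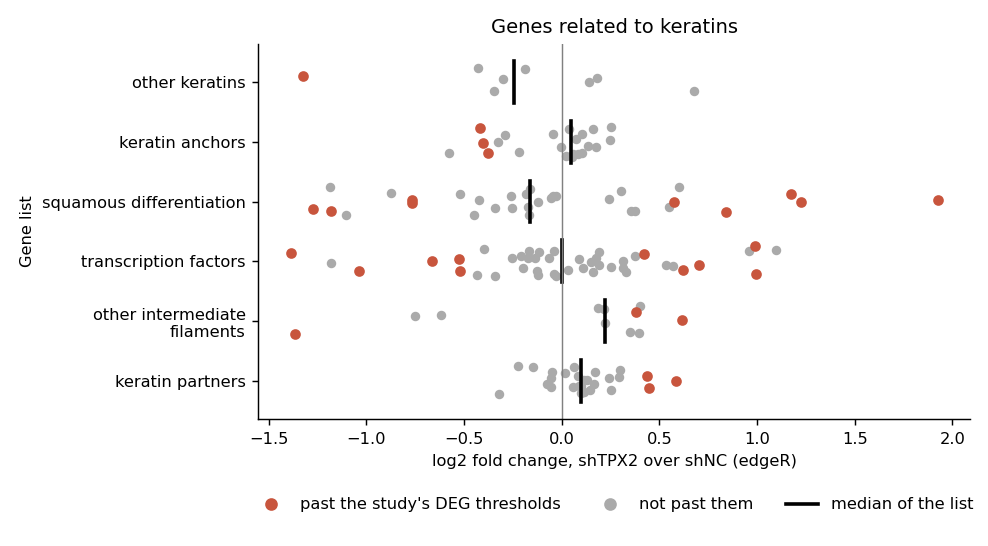
Log2 fold changes, shTPX2 minus shNC, of the tested genes in each list of keratin-related genes, with genes past the study's thresholds marked and the median of each list drawn as a line. The medians lie between -0.24 for the other keratins and 0.22 for other intermediate filaments, beside -0.01 over all tested genes.

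The genes whose pattern over the 4 libraries was most like that of KRT4 were sought among 12693 genes with a mean of at least 1 TPM, by the root mean square difference between log2(TPM + 1) profiles after each gene's mean was subtracted. The nearest were CXCL1 (0.47), EIF3CL (0.50), LRRC26 (0.58), FOXJ1 (0.60) and HIST1H2BJ (0.60). CXCL1, a neutrophil-attracting chemokine, was at 31.3, 47.8, 186 and 202 TPM, and FOXJ1, the factor of ciliated cells, at 1.31, 1.61, 4.16 and 5.64 TPM. All 5 were higher in both shTPX2 libraries, which follows from the search, because KRT4 itself was chosen as higher there. EIF3CL has a near-identical copy, EIF3C, and its value is uncertain. None of these 5 is a keratin.

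The deposited table also holds group means from the authors, and these were not the means of the 2 libraries given. For every gene, 3 times the nc mean and 4 times the shTPX2 mean of TPM came to a sum that was whole in its 2 decimals and not below the 2 libraries, within 0.02, which holds for 100% of genes, against 35.1% and 51.5% when 2 libraries were assumed. The columns thus average 1 further nc and 2 further shTPX2 libraries, which were not analysed here and whose cells are not named in the sources used here. The authors' mean of KRT4 was 4.28 TPM in nc and 18.3 TPM in shTPX2, a ratio of 4.27, and both means were lower than both libraries of their group. By subtraction, KRT4 had 0 counts in the further nc library and 24 counts in sum in the 2 further shTPX2 libraries, so the authors' KRT4 difference came almost wholly from the 4 libraries described above. For KRT17 the authors' means were 5.14 and 2.67 TPM, a ratio of 0.52, while the further libraries stood the other way, at 2.04 TPM in nc and a mean of 3.84 TPM in shTPX2. Read as TPM ratios, the authors' means had the same direction as the 4 libraries for 8 of the 10 keratins. For KRT8 and KRT80, whose groups overlapped, they had the other. These means hold the further libraries in unequal shares, 1 of 3 in nc and 2 of 4 in shTPX2. The authors' directions are thus no separate check. KRT8 had a ratio of 1.03 in the 4 libraries and 0.883 in the authors' means. Its further libraries stood at 2236 TPM in nc and a mean of 2796 TPM in shTPX2. KRT18 had ratios of 0.987 and 0.855, while its further libraries stood the other way, at 1718 and 2210 TPM. The edgeR log2 fold changes of KRT18 and KRT80 were above 0 while their TPM ratios were below 1, so neither gene has a settled direction.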

How the data were processed

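The 4 libraries (2 shNC, 2 shTPX2) were grouped by the genotype in the GEO labels. The authors deposited, per gene and library, an expected count (an estimate of reads, not normalized), an FPKM value and a TPM value, with group means of each. FPKM values, which the authors scaled by length and depth, were not used. The deposited TPM values, scaled to the same sum in each library, were used for levels. The methods of the study name SOAPnuke, HISAT2/Bowtie2 and RSEM or StringTie, whereas the submitters' processing notes name HISAT2, featureCounts, DESeq2 and GRCh38. The annotation, the strand setting and the tool that made the counts are not given in the sources used here, although values that were not whole numbers made up 42.15% to 44.58% per library.

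Expected counts were rounded to 0 decimals and filtered with filterByExpr, which kept 14048 of 18134 genes, all 10 keratins among them. The main test was edgeR 4.0.16's quasi-likelihood F-test (TMM factors, Benjamini-Hochberg adjustment over all tested genes), and limma 3.58.1 after voom served for the study's thresholds, both in R 4.3.3. Scripts were tested on simulated data. The common dispersion was 0.0485. Alternatives were DESeq2 1.42.0, RLE factors, library size only, no filter, at least 10 counts in every library, the edgeR p in the study's thresholds, log2(TPM + 1) and log2(TPM + 0.1), the replicate number as a block, and leaving out each library, where a lone library was assumed to vary like the other group. There were 0 columns of per-sample values that could not be mapped.

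The members and lists were chosen with earlier results of these data known. Genes named are TPX2, the 10 members, other keratins that passed the filter, up to 8 genes per list at the study's thresholds by smallest limma p, the 5 genes most like KRT4, and cell type markers, except for a result that is not reported here. Shared stretches were counted over GENCODE v29 transcripts, and promoters came from RefSeq (KRT4 and KRT8 of the 10 matched).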

Additional observations from a re-analysis of the deposited data

Results flagged for a closer look

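The authors' group means stand outside the comparison above, since they pool libraries not analysed here, and 6 keratins had a higher authors' mean in shTPX2 than in nc. These were KRT4 at 18.28 against 4.28 TPM, KRT7 at 2989 against 2629 TPM, KRT13 at 1.083 against 1.043 TPM, KRT15 at 31.45 against 20.59 TPM, KRT19 at 2188 against 2011 TPM and KRT80 at 111.4 against 99.06 TPM. The remaining members, KRT6A, KRT8, KRT17 and KRT18, had a lower authors' mean in shTPX2 (ratios 0.296, 0.883, 0.52 and 0.855). The means carry no spread, hold the further libraries in unequal shares and were not tested. With 2 libraries per group, no group was large enough to look for single outlying libraries by a rule.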

How the results depend on the processing

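The 28 results were recomputed in 315 alternative values, of which 44 moved and 0 reversed a called direction. Most of the results are counts, which cannot reverse, and of the member fold changes only KRT4 and KRT17 were called. Uncalled fold changes did change sign, such as KRT6A from -1.28 to 0.80 without shNC 2 and KRT13 from 0.49 to -1.70 without shTPX2 1. KRT4 ranged from 2.29 to 2.62 over the alternatives that kept all libraries and KRT17 from -2.11 to -1.62 (the latter for log2(TPM + 1)). Genes at an adjusted p below 0.05 numbered 0 in edgeR, 111 in DESeq2 and 0 to 23 with 1 library left out. Genes higher at the study's thresholds numbered 876, 578 with library size only and 495 to 1546 with 1 library left out, and genes lower numbered 1122 and 523 to 1969. The lowest of these came without shTPX2 2 and the highest without shNC 1. Higher calls made up 43.8% of all calls and 28.6% with library size only. Members called higher numbered 1, 3 with the replicate block (KRT7 and KRT15 added), 2 by DESeq2, 2 by the edgeR p (KRT15 added) and 1 to 4 with 1 library left out, and members called lower 1 to 2. Other keratins called higher numbered 0, and 1 with no filter. Those called lower numbered 1, 2 with no filter, 0 by DESeq2 and 0 with at least 10 counts, where KRT81 was not tested. Other intermediate filaments called higher numbered 2, 0 with library size only, 4 with the replicate block, 0 by DESeq2, 1 by the edgeR p and 0 to 3, and lower 0 to 3. With 1 library left out, anchors numbered 0 to 4 higher and 0 to 3 lower, squamous genes 4 to 8 and 2 to 10, transcription factors 4 to 12 and 1 to 6, turnover and chaperone genes 2 to 4 higher, and the median of the members was 0.05 to 0.59. The cause was not tested.

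Libraries of the 2 groups share replicate numbers, but the labels tie them to nothing shared. The replicate differences of the groups correlated at 0.182 across 14048 genes, with 2 pairs only, so the samples were treated as sharing a number, and with the replicate block KRT4 was 2.58. KRT6A and KRT13, with as few as 11 and 7 counts in a library, also differed 7.61-fold and 7.92-fold between libraries of a group.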

Other observations

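The further libraries that the authors' means hold differed from the 4 analysed libraries in several genes, as levels obtained by subtraction and with no test. NKX2-1, the lung lineage factor, came to 64.2 TPM in the further nc library and to a mean of 72.1 TPM in the 2 further shTPX2 libraries. None of the 4 analysed libraries exceeded 1.55 TPM. KRT8 came to 2236 and 2796 TPM and KRT18 to 1718 and 2210 TPM, below each of the 4 analysed libraries. The cells of the further libraries are not named in the sources used here. TPX2 came to 248.5 and 85.4 TPM. KRT15 came to 15.3 and 22.0 TPM, within or just below the range of the shNC libraries.

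Some keratins below the filter were seen in few reads. KRT34, a type I hair keratin, had 8, 10, 3 and 0 counts, and KRT40, another, had 1 count in each shTPX2 library and 0 in each shNC library.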
